A study of Homo sapiens with 26 samples.

Results

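The 35 genes described here carry the unfolded protein response and the integrated stress response: chaperones and folding enzymes of the endoplasmic reticulum (ER), genes that degrade or translocate ER proteins, the 3 stress sensors, and ATF4 with its targets. They were chosen by name from a table of 30332 entries. All 35 were found, and all 35 passed the filter on low values that left 14080 genes for testing (a mean of at least 1 TPM, an abundance corrected for transcript length and library size, in at least 3 mice). Their transcripts together made up 0.456% of all TPM in resistant tumors, 0.435% in sensitive tumors and 0.443% in vehicle tumors.

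The tumors were xenografts of ZR751, an HR+ HER2- human breast cancer cell line, grown under the skin of female NSG mice, which lack most of their own lymphocytes. Resistant tumors (5 mice) had been under the CDK4 inhibitor atirmociclib for 84 to 91 days, sensitive tumors (3 mice) had received it for 3 days, and vehicle tumors (5 mice) had received none for 3 days. The dose was 60 mg/kg by mouth, given 2 times a day 7 h apart, and the 3-day tumors were taken 3 h after the last dose; treatment began at an average tumor volume of 150 mm3. Mice of the resistant group belonged to another study, whose own vehicle mice are not analysed here, so length of treatment, study and resistance cannot be told apart wherever they are compared. All tumors descend from 1 cell line, and each mouse gave an A and a B library (26 in all), which were averaged so that the mouse is the replicate.

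Proteins that enter the ER are folded by chaperones there, and misfolded ones are pulled back to the cytosol and degraded (ER-associated degradation, ERAD). When unfolded proteins build up, ATF6 is cleaved into a transcription factor, and IRE1 (encoded by ERN1) splices XBP1 mRNA so that it encodes another. Both raise chaperone and ERAD genes, called here the ER side (23 genes, 14 for folding and 9 for ERAD or translocation). The remaining sensor, PERK (encoded by EIF2AK3), phosphorylates eIF2alpha, as do kinases that sense lack of amino acids, heme deficiency or viral RNA; bulk protein synthesis then slows while ATF4 is translated, and ATF4 raises amino acid, redox and cell death genes, called here the ATF4 side (9 genes). mRNA levels show neither ATF6 cleavage, nor XBP1 splicing, nor eIF2alpha phosphorylation. In breast tumors of luminal type XBP1 is also driven by the estrogen receptor, and secretory load is high.

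The promoter letters of both sides are shown first, since ATF6, XBP1 and ATF4 act through sites of this kind. Windows from 250 bases before to 50 bases after the start site were taken from RefSeq (GRCh38.p14), which matched 31 of the 35 genes (PDIA3, DERL1, DERL3 and NUPR1 have no window). They were searched on both strands for ERSE (CCAAT, any 9 bases, CCACG) and ERSE-II (ATTGG, any 1 base, CCACG), sites of ATF6 with NF-Y, for UPRE (TGACGTGG), a site of XBP1 and ATF6, and for CARE (TGATGNAAN), a site of ATF4 with C/EBP proteins. ERSE was present in 6 of 20 ER-side genes (30%), against 25 of 27305 genes in all (0.0916%). ERSE-II was present in 3 of 20 (15%), against 0.0696% of all genes, and any of the 3 motifs in 9 of 20 (45%), against 1.08%. None of the 8 ATF4-side genes held an exact match to any of those 3. Only exact matches inside the window were counted, so sites that differ by a letter or lie farther away are missed. CARE was present in 3 of 8 ATF4-side genes (37.5%; ASNS, CHAC1 and CEBPG) and in 1 of 20 ER-side genes (HERPUD1), against 4.45% of all genes. The 250 bases before the start of 5 ER-side genes and 2 ATF4-side genes follow, 5′ to 3′ on the strand of the gene, with each match in capitals. HSP90B1 has ERSE in each orientation. HYOU1 has ERSE-II in 2 places, the first overlapping its UPRE by 5 bases, so that those 2 matches share 1 run of capitals. HERPUD1 has CARE first and ERSE-II after it.
HSPA5 (chr9:125241344-125241593, minus strand): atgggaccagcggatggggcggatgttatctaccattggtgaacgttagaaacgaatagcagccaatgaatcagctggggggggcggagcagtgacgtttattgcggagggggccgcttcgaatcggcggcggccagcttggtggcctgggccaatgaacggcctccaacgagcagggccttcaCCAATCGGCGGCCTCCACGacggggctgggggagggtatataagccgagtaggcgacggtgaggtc
HSP90B1 (chr12:103930160-103930409, plus strand): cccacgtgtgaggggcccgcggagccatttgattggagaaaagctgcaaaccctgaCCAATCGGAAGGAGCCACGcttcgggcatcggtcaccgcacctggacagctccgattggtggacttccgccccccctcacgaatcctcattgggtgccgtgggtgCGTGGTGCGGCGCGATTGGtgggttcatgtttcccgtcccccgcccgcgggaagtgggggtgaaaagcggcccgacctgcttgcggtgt
CRELD2 (chr22:49918384-49918633, plus strand): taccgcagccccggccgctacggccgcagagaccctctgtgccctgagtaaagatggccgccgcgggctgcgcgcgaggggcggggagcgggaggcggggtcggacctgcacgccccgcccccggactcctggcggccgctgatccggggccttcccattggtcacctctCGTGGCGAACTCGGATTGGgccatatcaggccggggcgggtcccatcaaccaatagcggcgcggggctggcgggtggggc
HYOU1 (chr11:119057206-119057455, minus strand): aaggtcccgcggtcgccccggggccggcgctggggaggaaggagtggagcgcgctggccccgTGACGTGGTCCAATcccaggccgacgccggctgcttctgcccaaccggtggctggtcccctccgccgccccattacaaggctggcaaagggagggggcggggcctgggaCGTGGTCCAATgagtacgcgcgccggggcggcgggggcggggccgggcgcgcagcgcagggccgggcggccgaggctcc
HERPUD1 (chr16:56931892-56932141, plus strand): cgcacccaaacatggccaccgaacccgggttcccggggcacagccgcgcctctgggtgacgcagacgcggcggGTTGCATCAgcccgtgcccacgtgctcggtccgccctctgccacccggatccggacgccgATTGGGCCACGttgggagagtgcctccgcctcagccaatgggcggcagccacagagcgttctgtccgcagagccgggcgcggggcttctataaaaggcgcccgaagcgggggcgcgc
ASNS (chr7:97872409-97872658, minus strand): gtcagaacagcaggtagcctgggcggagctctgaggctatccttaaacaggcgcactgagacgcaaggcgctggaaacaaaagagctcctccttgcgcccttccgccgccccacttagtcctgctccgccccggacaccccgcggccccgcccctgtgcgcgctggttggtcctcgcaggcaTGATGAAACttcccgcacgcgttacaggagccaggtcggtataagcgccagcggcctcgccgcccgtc
CHAC1 (chr15:40953221-40953470, plus strand): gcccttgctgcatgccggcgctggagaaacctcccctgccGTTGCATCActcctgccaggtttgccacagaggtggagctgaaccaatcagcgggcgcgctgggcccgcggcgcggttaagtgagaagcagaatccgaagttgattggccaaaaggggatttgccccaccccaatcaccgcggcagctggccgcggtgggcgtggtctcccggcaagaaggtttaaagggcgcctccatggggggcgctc

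A match describes letters, not binding. The sides were set up as genes that ATF6, XBP1 or ATF4 raise, so motif shares are no independent support for them. The 9 ER-side genes with a match had a median log2 change of 0.31 in resistant against vehicle tumors, and the 11 without one had 0.15; against sensitive tumors the medians were 0.20 and 0.21. EDEM1 and MANF, whose changes are described below, held no exact match to the 3 ER-side motifs in this window, and DDIT3 held none to CARE. The DDIT3 window did hold CCAAT, 9 bases and CCACT, which differs from ERSE in its last letter.

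On the TPM scale, which corrects for transcript length, a few chaperones dominated. CALR (calreticulin) was highest, with a mean of 672 TPM over the 13 mice, followed by HSP90B1 (GRP94, 510 TPM), PDIA3 (a disulfide isomerase, 506 TPM) and CANX (calnexin, 423 TPM), and these 4 held 47.3% of the TPM of all 35 genes. ATF4 came next with 339 TPM, ahead of SEC61B (a subunit of the translocation channel, 294 TPM) and HSPA5 (BiP, the main ER chaperone and brake on all 3 sensors, 257 TPM). The sensors were low: ATF6 averaged 26.3 TPM, EIF2AK3 16.7 TPM and ERN1 9.7 TPM. At the low end stood VLDLR (a lipoprotein receptor and ATF4 target, 3.76 TPM), DERL3 (a derlin of the ERAD channel, 3.57 TPM) and CHAC1 (a glutathione-degrading enzyme, 0.903 TPM).

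**Figure D1:**
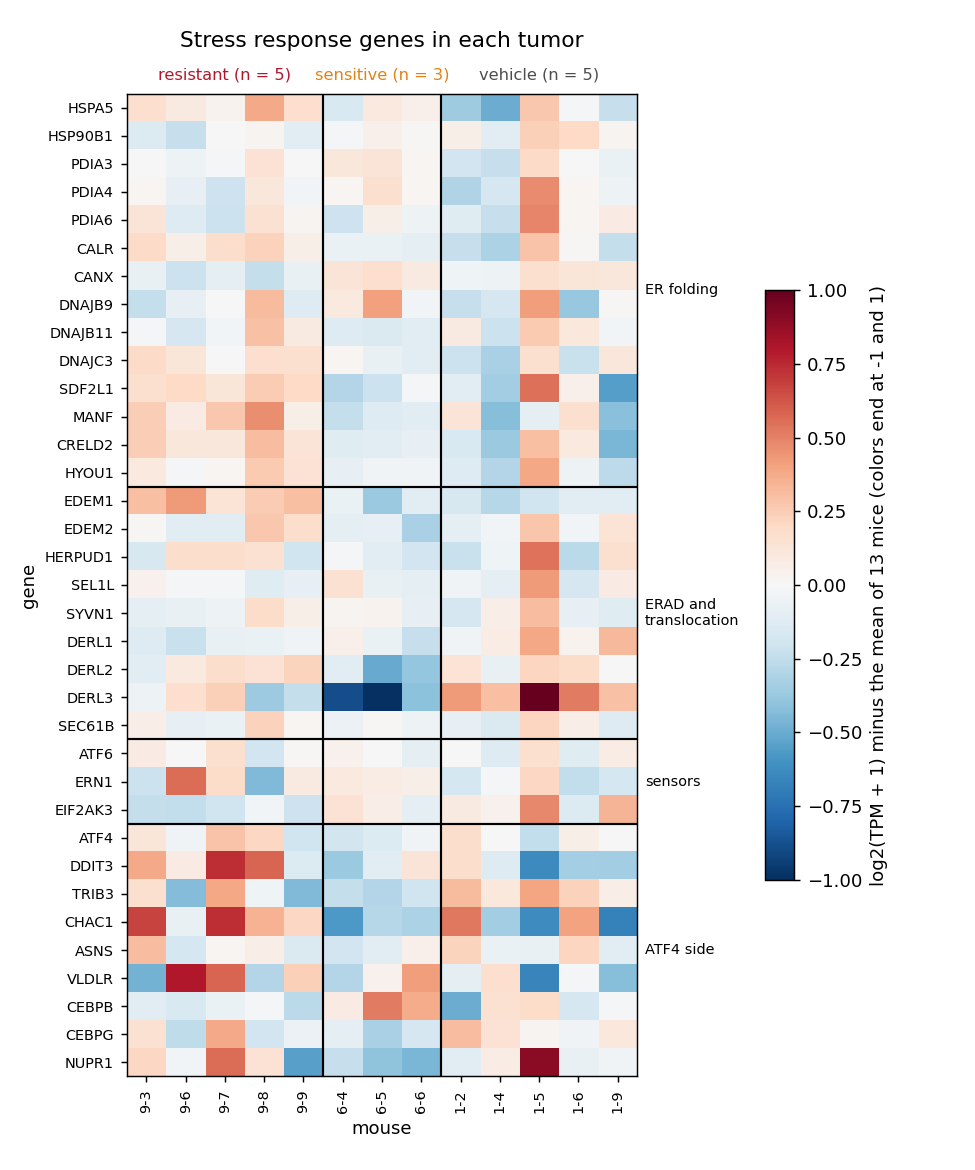
Level of each of the 35 genes in each of the 13 mice, as log2(TPM + 1) minus the gene's mean over all mice; columns are mice (resistant, sensitive, vehicle) and rows are genes by role. Vehicle mouse 1-5 is the highest of the vehicle mice in 21 of 23 ER-side rows, and DERL3 is lowest in the 3 sensitive mice.

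Few of the 35 genes changed. Log2 changes below are relative to the median change of all 14080 genes tested, which as fitted was -0.07 for sensitive against vehicle, -0.14 for resistant against vehicle and -0.05 for resistant against sensitive. A gene was called when limma's two-sided p, adjusted by Benjamini-Hochberg over all 14080 genes, was under 0.05. That p tests the change as fitted, before the median of all genes is taken off, and not the relative change printed beside it. For sensitive against vehicle tumors 0 genes were higher and 2 lower of 35, where 15.7% of all genes were called (3.16% higher, 12.5% lower). For resistant against vehicle tumors 4 were higher and 4 lower, where 44.0% of all genes were called (11.5% higher, 32.5% lower). For resistant against sensitive tumors 3 were higher and 2 lower, where 21.1% of all genes were called (9.56% higher, 11.6% lower). On TPM as deposited, the shares 2, 8 and 5 of 35 were no higher than those of all genes, and 25 of 35 were called in none. Groups did not overlap in TPM for 5 of 35 genes in sensitive against vehicle (21.7% of all genes tested), 4 in resistant against vehicle (27.3%) and 11 in resistant against sensitive tumors (30.4%). The 3 comparisons share groups of mice, so they are not independent of each other. Scaling moves the split of calls: over all genes, resistant against vehicle gave 1624 higher and 4570 lower on TPM as deposited, and 2539 higher and 2439 lower after median-of-ratios scaling between mice.

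**Figure D2:**
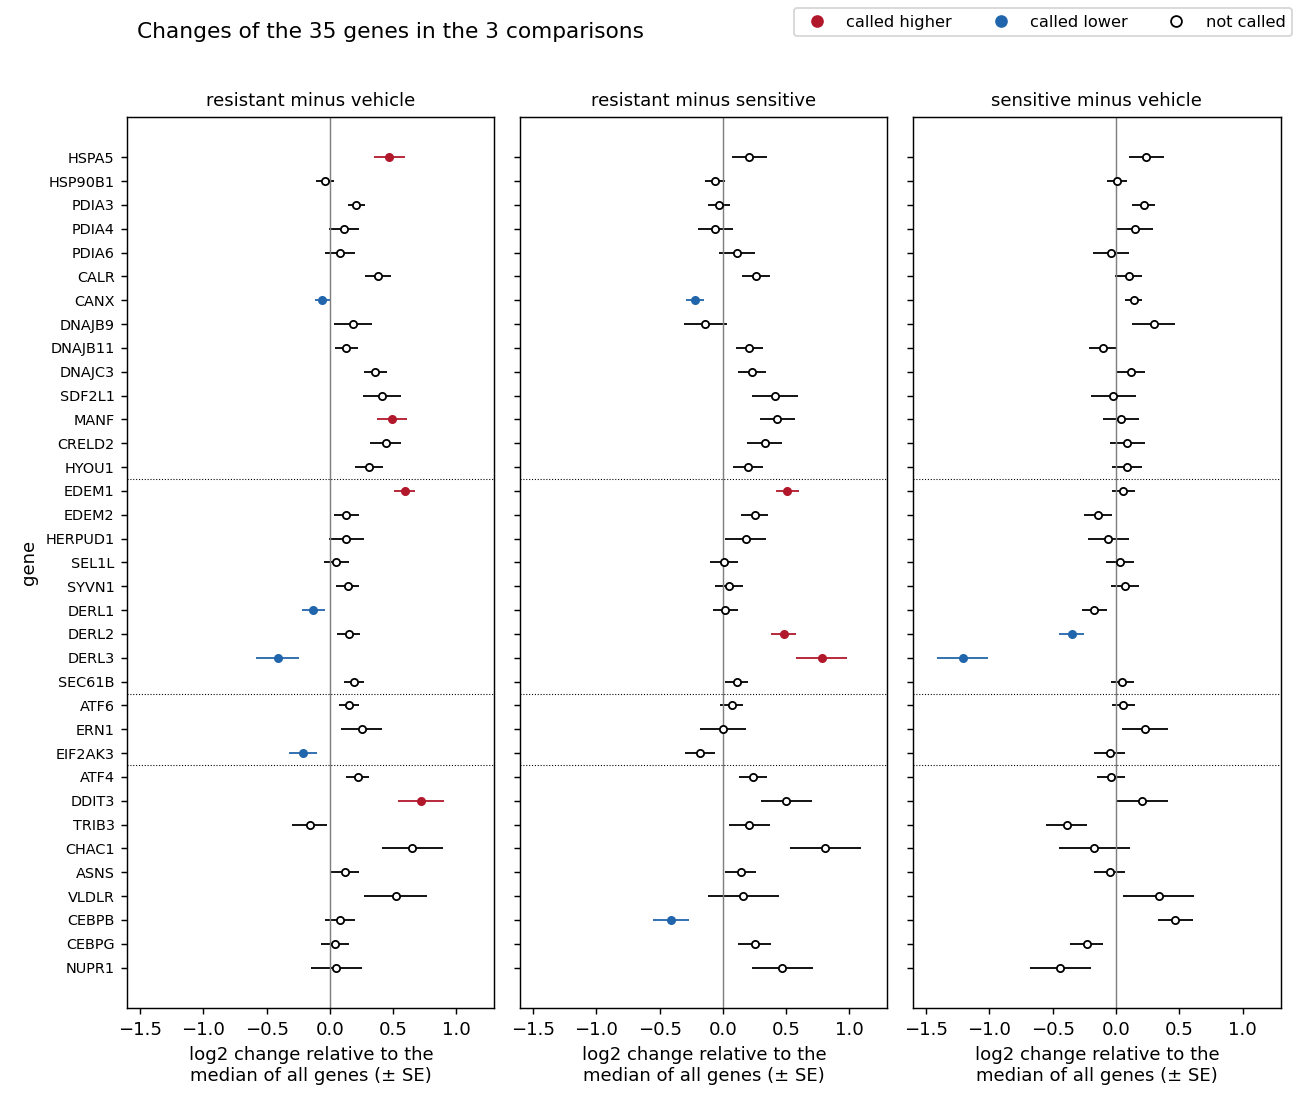
Log2 change of each of the 35 genes in the 3 comparisons, relative to the median change of all genes tested, with lines for the standard error and filled symbols for genes called at adjusted p under 0.05. Most points lie near 0; among called genes, DDIT3 and EDEM1 stand farthest to the right for resistant against vehicle (CHAC1, at 0.65, was not called), and DERL3 stands to the left for sensitive against vehicle.

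Of the 14 folding genes, HSPA5 and MANF rose and CANX fell in resistant against vehicle tumors, and the median change of all 14 was 0.26 (quartiles of all genes -0.19 and 0.22). HSPA5 had 285, 270, 260, 330 and 285 TPM in resistant tumors, 229, 272 and 263 TPM in sensitive tumors, and 198, 180, 306, 252 and 216 TPM in vehicle tumors. Resistant tumors lay above vehicle tumors except for vehicle mouse 1-5, which was second of all 13 mice. The change was 0.47 ± 0.12 (log2, SE; adjusted p = 0.0392), or 1.38-fold. MANF, a secreted protein that is retained in the ER with BiP and released under stress, had 137, 122, 139, 159 and 120 TPM in resistant tumors, 97.5, 105 and 107 TPM in sensitive tumors, and 126, 85.4, 108, 129 and 86.0 TPM in vehicle tumors. Its resistant and sensitive tumors did not overlap, while 2 vehicle tumors lay within the resistant range; the change was 0.49 ± 0.12 against vehicle (adjusted p = 0.0295) and 0.43 ± 0.14 against sensitive tumors, which was not called (adjusted p = 0.0648). HSPA5 was not called with A libraries alone (adjusted p = 0.0583), nor MANF with B libraries alone (0.0555). Leaving out 1 mouse could end either call. That of HSPA5 was lost without vehicle mouse 1-2 (adjusted p = 0.0896), 1-4 (0.101) or 1-9 (0.0798), or resistant mouse 9-3 (0.0645), 9-6 (0.0524), 9-8 (0.0942) or 9-9 (0.0634), and that of MANF without vehicle mouse 1-4 (0.0778) or 1-9 (0.0805), or resistant mouse 9-3 (0.0546), 9-7 (0.0553) or 9-8 (0.0749).

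CANX, the membrane-bound lectin chaperone that holds newly made glycoproteins, went the other way. It had 400, 362, 395, 357 and 400 TPM in resistant tumors, 461, 473 and 448 TPM in sensitive tumors, and 408, 407, 470, 459 and 455 TPM in vehicle tumors, so that all 5 resistant tumors lay below the other 8. Against sensitive tumors the change was -0.22 ± 0.07 (adjusted p = 0.0152), which was lost without sensitive mouse 6-4 (0.0514) or 6-5 (0.0678). Against vehicle tumors it was called as fitted (-0.20 ± 0.06, adjusted p = 0.0150), but relative to the median of all genes it was -0.06. It was not called after median-of-ratios scaling (adjusted p = 0.533) or quantile normalization (0.0774), or with B libraries alone (0.114). CALR, the soluble partner of CANX in the same cycle, averaged 737 ± 41.2 TPM in resistant, 634 ± 7.01 TPM in sensitive and 630 ± 114 TPM in vehicle tumors (SD, n = 5, 3 and 5), and was not called (0.38 ± 0.10 against vehicle, or 0.24 as fitted, adjusted p = 0.0555).

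The remaining folding genes were called in no comparison. PDIA3, PDIA4 and PDIA6 (disulfide isomerases) and HSP90B1 had changes between -0.04 and 0.21 in resistant against vehicle tumors. CRELD2 (0.44, adjusted p = 0.0542), SDF2L1 (a BiP cofactor, 0.41, adjusted p = 0.162), DNAJC3 (a BiP co-chaperone, 0.36, adjusted p = 0.0638) and HYOU1 (a large ER chaperone, 0.31, adjusted p = 0.211) were nearer to the called genes in size, and the BiP co-chaperones DNAJB9 (0.18) and DNAJB11 (0.13) were not. Without vehicle mouse 1-5, CALR (adjusted p = 0.00132), CRELD2 (0.00495), SDF2L1 (0.00528), DNAJC3 (0.0153) and HYOU1 (0.00488) were called higher, and the ER side then had 8 genes higher and 2 lower against vehicle, in place of 3 and 3. Of all genes 12.1% were higher and 31.6% lower without that mouse, in place of 11.5% and 32.5%. CALR (0.0478) and CRELD2 (0.0319) were also called without vehicle mouse 1-6, DNAJC3 without vehicle mouse 1-9 (0.0340), and HSP90B1 was called lower without vehicle mouse 1-4 (0.0220) or resistant mouse 9-8 (0.0472). Leaving out vehicle mouse 1-4, resistant mouse 9-3 or resistant mouse 9-8 left 1 ER-side gene higher, and leaving out vehicle mouse 1-6 gave 5. The shares of all genes called higher were then 10.4%, 10.7%, 10.6% and 10.5%, in that order. Median-of-ratios scaling gave 8 higher and 0 lower, and quantile normalization 6 and 1. In sensitive against vehicle tumors no folding gene was called and their changes lay between -0.10 and 0.30; without vehicle mouse 1-5 PDIA3 was called higher (adjusted p = 0.0443). In resistant against sensitive tumors, CALR (0.0403) and SDF2L1 (0.0325) were called higher without vehicle mouse 1-5, and MANF without 1-6 (0.0478).

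ERAD and translocation genes included the largest changes of the ER side, and they differed in direction. EDEM1, a lectin that picks out misfolded glycoproteins for degradation and a known target of spliced XBP1, lies at chr3:5187646-5219957 (plus strand, GRCh38, GENCODE 29). It had 23.1, 25.3, 20.6, 22.4 and 23.2 TPM in resistant tumors, 17.7, 14.2 and 17.1 TPM in sensitive tumors, and 16.6, 15.1, 16.1, 17.1 and 17.2 TPM in vehicle tumors. All 5 resistant tumors lay above the other 8, and sensitive and vehicle tumors overlapped. EDEM1 rose by 0.59 ± 0.08 against vehicle (adjusted p = 0.000528; 1.5-fold) and by 0.51 ± 0.09 against sensitive tumors (adjusted p = 0.00362), and no alternative ended either call. Its relative EDEM2 averaged 34.3 ± 4.24 TPM in resistant, 29.4 ± 2.78 TPM in sensitive and 34.4 ± 3.84 TPM in vehicle tumors and was not called.

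The 3 derlins, subunits of the channel through which ERAD clients leave the ER, were each called in at least 1 comparison. DERL3 (chr22:23834503-23839128, minus strand) had 3.12, 3.80, 4.04, 2.31 and 2.61 TPM in resistant tumors, 1.31, 1.13 and 2.21 TPM in sensitive tumors, and 4.73, 4.25, 7.57, 5.12 and 4.24 TPM in vehicle tumors. The 3 groups did not overlap: sensitive tumors were lowest, resistant tumors between, vehicle tumors highest. DERL3 was lower in sensitive than in vehicle tumors by a log2 change of -1.21 ± 0.20 (adjusted p = 0.000575), and no alternative that kept the gene ended that call. In resistant tumors it was higher than in sensitive ones (0.78 ± 0.20, adjusted p = 0.0195; 0.0794 without sensitive mouse 6-4, 0.0970 without 6-5) and lower than in vehicle ones (-0.41 ± 0.17, adjusted p = 0.0191; 0.0624 after median-of-ratios scaling). With A libraries alone neither of these 2 was called (adjusted p = 0.126 and 0.0694). The gene overlaps SMARCB1 on the opposite strand by 3506 bases in GENCODE 29. The sources used here do not state whether reads were counted by strand, so reads of the pair may not be told apart at these low levels.

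DERL2 was lower in sensitive than in vehicle tumors and higher in resistant than in sensitive ones. It had 24.4, 28.2, 29.8, 29.2 and 30.8 TPM in resistant tumors, 24.2, 18.2 and 19.9 TPM in sensitive tumors, and 28.9, 24.9, 30.6, 29.9 and 26.4 TPM in vehicle tumors, with every sensitive tumor below the other 10. The changes were -0.35 ± 0.10 for sensitive against vehicle (adjusted p = 0.0158; 0.111 without sensitive mouse 6-5, 0.0753 without 6-6) and 0.48 ± 0.10 for resistant against sensitive (adjusted p = 0.0111; 0.0669 without 6-5). The first call was also lost after quantile normalization (adjusted p = 0.0596) and with A libraries alone (0.0542). Resistant and vehicle tumors overlapped, and DERL2 was not called between them (0.15, or 0.02 as fitted, adjusted p = 0.887). DERL1 averaged 42.2 ± 2.09 TPM in resistant, 42.9 ± 4.27 TPM in sensitive and 51.1 ± 6.87 TPM in vehicle tumors. It was called lower in resistant against vehicle tumors (-0.13 ± 0.09, or -0.26 as fitted, adjusted p = 0.0272). That call was lost after median-of-ratios scaling (adjusted p = 0.250) and without vehicle mouse 1-5 (0.0605) or 1-9 (0.0726) or resistant mouse 9-3 (0.0518) or 9-6 (0.0665). Quantile normalization (0.167) and B libraries alone (0.0904) ended it too.

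HERPUD1, SEL1L and SYVN1, which build the ubiquitin ligase complex of ERAD, and SEC61B were called in no comparison, with changes in resistant against vehicle tumors of 0.13, 0.05, 0.14 and 0.19. Over the whole ER side, resistant against sensitive tumors gave 3 genes higher (EDEM1, DERL2 and DERL3) and CANX lower. Without sensitive mouse 6-5, EDEM1 was the 1 gene still called, where 4.78% of all genes were higher and 5.65% lower. Without vehicle mouse 1-5 there were 5 higher, where 11.3% of all genes were higher.

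**Figure D3:**
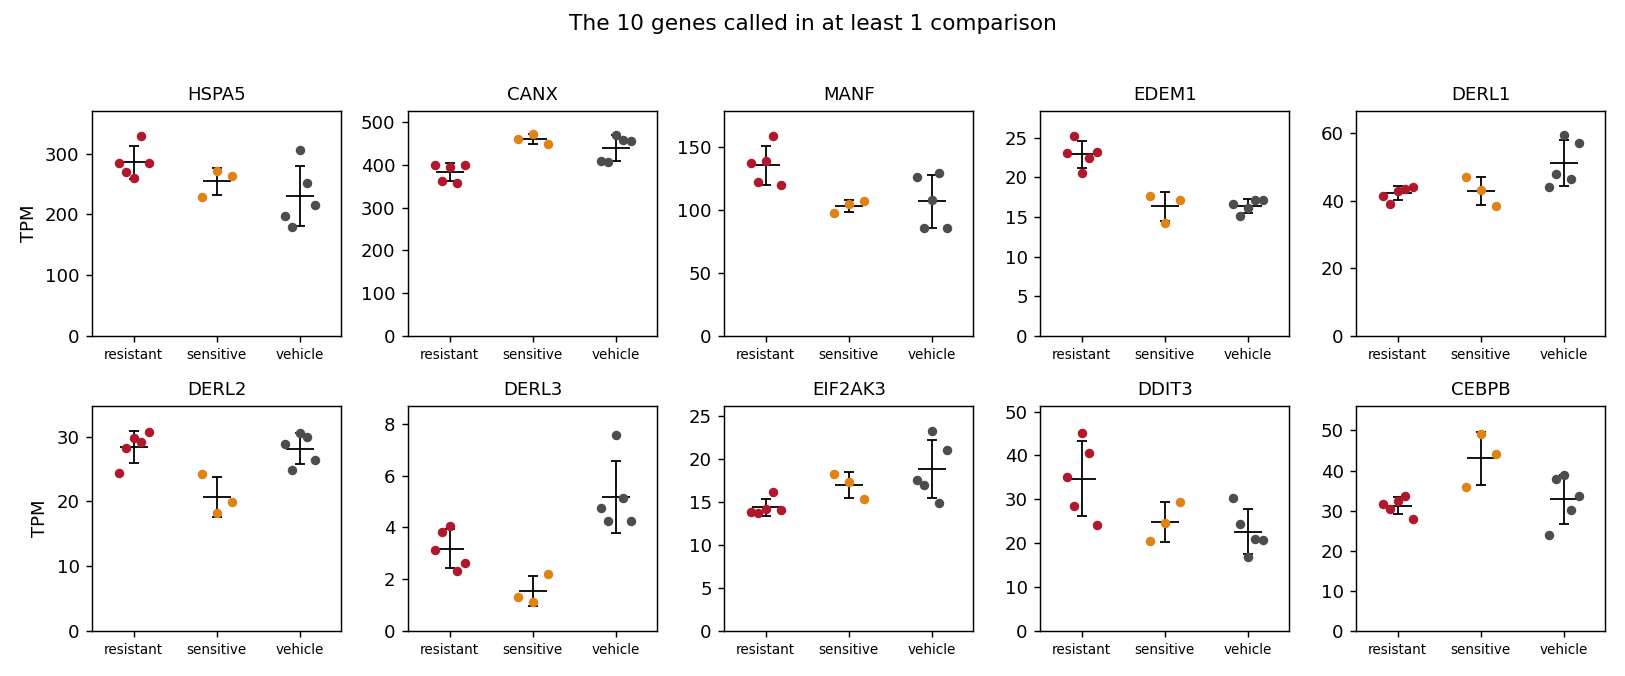
TPM per mouse (linear axis from 0) of the 10 genes called in at least 1 comparison, for resistant (5 mice), sensitive (3 mice) and vehicle tumors (5 mice); each point is 1 mouse, each horizontal line a group mean and each whisker 1 SD. EDEM1 is higher in all 5 resistant tumors, CANX lower in them, and DERL2 and DERL3 lowest in the 3 sensitive tumors.

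Among the sensors, ATF6 averaged 26.5 ± 2.42 TPM in resistant, 26 ± 1.3 TPM in sensitive and 26.2 ± 2.41 TPM in vehicle tumors (SD). ERN1 averaged 10.1 ± 2.97 TPM in resistant, 10.1 ± 0.186 TPM in sensitive and 9.03 ± 1.34 TPM in vehicle tumors, and neither gene was called. EIF2AK3, which encodes PERK, had 13.8, 13.7, 14.2, 16.1 and 14.1 TPM in resistant tumors, 18.3, 17.3 and 15.3 TPM in sensitive tumors, and 17.6, 17, 23.3, 14.9 and 21.1 TPM in vehicle tumors. Resistant tumor 9-8 lay within the vehicle range and the other 4 resistant tumors below it. EIF2AK3 was called lower in resistant against vehicle tumors (-0.21 ± 0.11, or -0.35 as fitted, adjusted p = 0.0176). It was not called after median-of-ratios scaling (adjusted p = 0.0996) or quantile normalization (0.153), or with B libraries alone (0.0727).

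On the ATF4 side, DDIT3 rose in resistant against vehicle tumors and CEBPB was lower in resistant than in sensitive tumors; the other 7 genes, ATF4 included, were called in no comparison. ATF4 mRNA had 367, 328, 410, 388 and 294 TPM in resistant tumors, 296, 307 and 328 TPM in sensitive tumors, and 380, 336, 284, 351 and 336 TPM in vehicle tumors, with all groups overlapping. Its change for resistant against vehicle was 0.22 ± 0.09, or 0.08 as fitted (adjusted p = 0.507). DDIT3, which encodes the cell death factor CHOP, had 35, 28.4, 45.2, 40.6 and 24.2 TPM in resistant tumors, 20.4, 24.6 and 29.4 TPM in sensitive tumors, and 30.3, 24.4, 16.8, 20.9 and 20.8 TPM in vehicle tumors. Resistant mice 9-3, 9-7 and 9-8 lay above every other mouse, and 9-6 and 9-9 lay within the vehicle range. The change was 0.72 ± 0.18 (adjusted p = 0.0166; 1.65-fold), and no alternative ended it; against sensitive tumors it was 0.50 ± 0.20 and not called (adjusted p = 0.131). In GENCODE 29 DDIT3 overlaps MARS and MBD6 on the opposite strand by 982 and 1028 bases, and on its own strand AC022506.1, listed as protein-coding, by 2769 bases, so reads of these genes may not be told apart.

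CEBPB, a bZIP partner of ATF4 and CHOP, had 31.6, 30.5, 32.4, 33.6 and 28.0 TPM in resistant tumors, 36.0, 49.1 and 44.2 TPM in sensitive tumors, and 23.8, 37.9, 38.8, 30.2 and 33.6 TPM in vehicle tumors. Every resistant tumor lay below every sensitive one. The change was -0.41 ± 0.14 (adjusted p = 0.0353), and the call was lost after median-of-ratios scaling (0.0605), without sensitive mouse 6-5 (0.161) or 6-6 (0.0964), and without resistant mouse 9-3 (0.0562), 9-6 (0.0641) or 9-9 (0.0666). With B libraries alone it was lost as well (adjusted p = 0.2). Sensitive against vehicle tumors gave 0.47 ± 0.14, which was not called (adjusted p = 0.0727) but was without vehicle mouse 1-5 (0.0394) or sensitive mouse 6-4 (0.0352).

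TRIB3, a pseudokinase that restrains ATF4 and CHOP, had 61.3, 40.4, 71.9, 53.3 and 40.2 TPM in resistant tumors, 46.4, 44.6 and 47.6 TPM in sensitive tumors, and 68.5, 59.3, 72.4, 64.6 and 57.4 TPM in vehicle tumors. Sensitive tumors lay below all vehicle tumors, with a change of -0.39 ± 0.16 that was not called (adjusted p = 0.0642); it was called without resistant mouse 9-6 (0.0483), 9-7 (0.0289) or 9-9 (0.0477), mice that enter this comparison through the shared estimate of the spread. In resistant against vehicle tumors TRIB3 was called lower without resistant mouse 9-7 (0.0151). CHAC1 had 1.87, 0.710, 2.00, 1.29 and 1.07 TPM in resistant tumors, 0.205, 0.475 and 0.440 TPM in sensitive tumors, and 1.59, 0.415, 0.165, 1.38 and 0.125 TPM in vehicle tumors. Its resistant tumors lay above its sensitive ones (0.81 ± 0.28, adjusted p = 0.0665, or 0.0462 without vehicle mouse 1-2). In resistant against vehicle tumors it was called higher without vehicle mouse 1-2 (0.0301) or 1-6 (0.0408). Vehicle tumors spanned nearly the whole range, and the log2(TPM + 1) scale understates changes at such levels. Outside the resistant group only the vehicle tumors at 1.59 and 1.38 TPM reached 1 TPM. CHAC1 thus passed the filter only through the group where it was high, so these tests are no support for a rise. ASNS, the asparagine synthetase that is a standard ATF4 target, averaged 18.9 ± 2.82 TPM in resistant, 17.5 ± 1.63 TPM in sensitive and 19.2 ± 2.38 TPM in vehicle tumors and was not called.

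The last 3 genes of the ATF4 side were called in no comparison. NUPR1, a stress-induced chromatin protein, averaged 112 ± 29.7 TPM in resistant, 80.7 ± 6.78 TPM in sensitive and 120 ± 42.4 TPM in vehicle tumors (-0.44 ± 0.24 for sensitive against vehicle, adjusted p = 0.158). CEBPG, a bZIP partner of ATF4, averaged 52 ± 9.92 TPM in resistant, 44.6 ± 3.76 TPM in sensitive and 55.3 ± 5.26 TPM in vehicle tumors (-0.23 ± 0.13 for sensitive against vehicle, adjusted p = 0.126). All sensitive tumors lay below all vehicle tumors for both genes. VLDLR averaged 4.44 ± 2.0 TPM in resistant, 3.84 ± 1.19 TPM in sensitive and 3.03 ± 0.895 TPM in vehicle tumors (0.52 ± 0.25 for resistant against vehicle, adjusted p = 0.221).

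Set side by side, the medians of the sides lay close together. The median change of the 23 ER-side genes was 0.05 for sensitive against vehicle, 0.15 for resistant against vehicle and 0.20 for resistant against sensitive tumors. The median of the 9 ATF4-side genes was -0.05, 0.12 and 0.24 in the same comparisons, beside quartiles of all genes of -0.16 and 0.17, -0.19 and 0.22, and -0.18 and 0.20. Relative to the median of all genes, 19 of 23 ER-side and 8 of 9 ATF4-side genes were above 0 in resistant against vehicle tumors, and 15 of 23 and 3 of 9 in sensitive against vehicle tumors. In numbers of calls, the ER side had 0 higher and 2 lower, 3 and 3, and 3 and 1, and the ATF4 side had 0 and 0, 1 and 0, and 0 and 1. Averaged over genes on the log2(TPM + 1) scale, the ER side stood 1.44 ± 0.22 above the ATF4 side in resistant tumors, 1.52 ± 0.11 in sensitive tumors and 1.5 ± 0.25 in vehicle tumors (SD, n = 5, 3 and 5), and the groups overlapped.

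The sides did come apart between mice of 1 group. In vehicle mouse 1-5, 21 of 23 ER-side genes were the highest of the 5 vehicle mice (all but MANF and EDEM1), while ATF4, DDIT3 and VLDLR were the lowest and TRIB3, CEBPB and NUPR1 the highest. Its ER side averaged 6.67 (log2) and its ATF4 side 4.79, against 6.17 to 6.36 and 4.71 to 4.98 in the other 4 vehicle mice. Among resistant mice, 9-8 was highest in 15 of 23 ER-side genes (12 of 14 folding genes), and 9-7 was highest in 6 of 9 ATF4-side genes (ATF4, DDIT3, TRIB3, CHAC1, CEBPG and NUPR1) and lowest in 7 of 23 ER-side genes. Mouse 9-9 was lowest in 5 of 9 ATF4-side genes. How often each mouse was highest or lowest over all genes was not counted, so these counts are not shown to be particular to either side. Over all 14080 genes, vehicle mouse 1-5 also correlated least with its own group (mean Pearson r across genes 0.976, against 0.983 to 0.988 for the other vehicle mice).

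**Figure D4:**
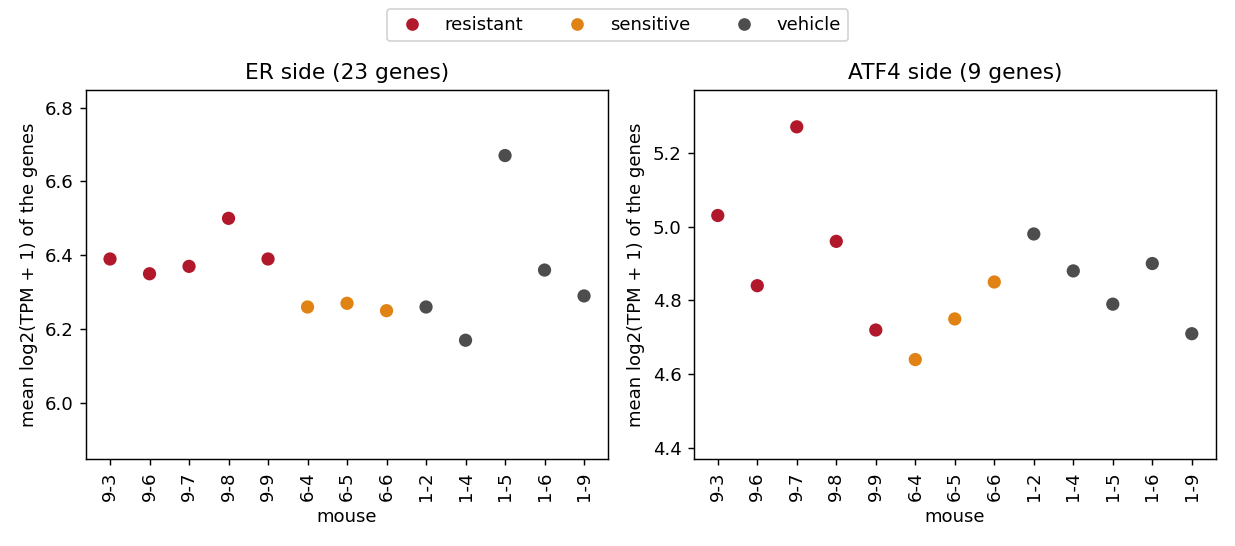
Mean log2(TPM + 1) in each mouse (1 point per mouse, coloured by group) over the 23 ER-side genes in the left panel and the 9 ATF4-side genes in the right panel, on axes of equal length that do not start at 0. Vehicle mouse 1-5 is highest on the ER side at 6.67 and resistant mouse 9-7 on the ATF4 side at 5.27.

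XBP1, the mRNA that IRE1 splices, is no member but belongs to the ER side and was very abundant. It had 5173, 5553, 5417, 5474 and 5287 TPM in resistant tumors, 5315, 5420 and 4521 TPM in sensitive tumors, and 2324, 2879, 6058, 3306 and 3445 TPM in vehicle tumors. All treated tumors lay above the vehicle tumors other than 1-5, which was the highest of all. XBP1 rose by 0.79 ± 0.18 in resistant against vehicle tumors (adjusted p = 0.0109; 0.0730 after quantile normalization), and the 0.64 ± 0.21 of sensitive against vehicle tumors was not called (adjusted p = 0.0834); without vehicle mouse 1-5 it was 0.84 and called (adjusted p = 0.000374). These are gene totals that do not separate spliced from unspliced mRNA.

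Of the other 41 ER quality control genes, 1 was higher and 1 lower in sensitive against vehicle tumors, 6 and 8 in resistant against vehicle, and 3 and 4 in resistant against sensitive. Of all genes 15.7%, 44.0% and 21.1% were called in these comparisons, so the shares of the list were no higher. After median-of-ratios scaling the counts were 4 and 0, 13 and 1, and 3 and 2, where 5.48% of all genes were higher and 7.57% lower, 18% and 17.3%, and 12.2% and 9.48%. Without vehicle mouse 1-5 they were 4 and 0, 12 and 6, and 3 and 6, where all genes gave 3.85% and 13.2%, 12.1% and 31.6%, and 11.3% and 14.0%. WFS1, the ER membrane protein wolframin, had 75, 75.3, 76.6, 76.5 and 94.7 TPM in resistant tumors, 44.5, 43.5 and 45.5 TPM in sensitive tumors, and 50.2, 48.7, 52.6, 55.4 and 42.1 TPM in vehicle tumors. Resistant tumors were all above the rest (0.80 ± 0.08 against vehicle, adjusted p = 4.15e-05, and 0.86 ± 0.09 against sensitive, adjusted p = 0.000189). The ERAD ubiquitin-conjugating enzyme UBE2G2 rose by 0.47 against vehicle (adjusted p = 0.00219). EDEM3, a relative of EDEM1, was lower in resistant than in vehicle tumors (-0.36 ± 0.14, adjusted p = 0.0103). ERO1B, an oxidase that recharges disulfide isomerases, was high in sensitive tumors, with 11.0 ± 1.32 TPM in resistant, 21.8 ± 5.03 TPM in sensitive and 10.4 ± 1.41 TPM in vehicle tumors (1.06 ± 0.15 for sensitive against vehicle, adjusted p = 0.000406).

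Of the other 34 integrated stress response genes, 31 were tested (not FGF21, ALDH1L2 and SLC7A11). In sensitive against vehicle tumors 1 was higher and 5 lower, in resistant against vehicle 4 were higher and 10 lower, and in resistant against sensitive 5 were higher and 1 lower. Called in either direction were 6, 14 and 6 of 31, near the 15.7%, 44.0% and 21.1% of all genes, so the counts show nothing particular to the list. After median-of-ratios scaling the counts were 1 and 3, 6 and 4, and 6 and 1; without sensitive mouse 6-5 they were 1 and 2, 5 and 8, and 2 and 0, where all genes gave 0.710% and 5.69%, 11.0% and 31.1%, and 4.78% and 5.65%. The 4 that rose in resistant against vehicle tumors were ATF3, PPP1R15A, GDF15 and STC2. ATF3, a stress-induced transcription factor, had 12.8, 19.9, 21.8, 62.3 and 4.83 TPM in resistant tumors, 1.62, 2.38 and 3.02 TPM in sensitive tumors, and 5.77, 3.54, 8.12, 3.82 and 4.33 TPM in vehicle tumors (1.82 ± 0.46 for resistant against vehicle, adjusted p = 0.00919). The resistant tumors spread widely, from 9-9 within the vehicle range to 9-8. PPP1R15A, the phosphatase subunit that reverses eIF2alpha phosphorylation, had 18.4, 31.6, 23, 36.7 and 12.1 TPM in resistant tumors, 7.86, 9.98 and 11.0 TPM in sensitive tumors, and 12.4, 11.2, 14.6, 10.3 and 13.8 TPM in vehicle tumors (0.96 ± 0.23, adjusted p = 0.0106); resistant mouse 9-9 again lay within the vehicle range. GDF15, a secreted stress hormone, rose by 1.61 ± 0.34 (adjusted p = 0.00361), and STC2, a secreted glycoprotein that is also an estrogen receptor target, by 2.75 ± 0.43 (adjusted p = 0.000343). In sensitive against vehicle tumors STC2 was not called, but was called higher without vehicle mouse 1-5 (1.68, adjusted p = 0.0235) or sensitive mouse 6-4 (2.02, 0.0155). Between resistant and sensitive tumors STC2 was not called, but was called higher without vehicle mouse 1-5 (1.36, 0.0365).

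Of the 10 genes called lower in resistant against vehicle tumors, MTHFD2, PHGDH and PSPH had the smallest adjusted p. PHGDH, the first enzyme of serine synthesis, averaged 25.6 ± 5.51 TPM in resistant, 23.4 ± 3.41 TPM in sensitive and 58.0 ± 13.9 TPM in vehicle tumors, with changes of -1.0 ± 0.17 (resistant against vehicle, adjusted p = 0.000175) and -1.18 ± 0.19 (sensitive against vehicle, adjusted p = 0.000629). MTHFD2, a mitochondrial folate enzyme, averaged 93.9 ± 5.64 TPM in resistant, 93.6 ± 5.89 TPM in sensitive and 135 ± 10.2 TPM in vehicle tumors (adjusted p = 4.88e-05 for resistant and 0.000313 for sensitive against vehicle). PSPH, the last enzyme of serine synthesis, was lower in resistant than in vehicle tumors (-0.41 ± 0.10, adjusted p = 0.000757) and was not called in sensitive against vehicle tumors (-0.24 ± 0.12, adjusted p = 0.0784). DDIT4, an inhibitor of mTORC1 that responds to ATF4 and to other stresses, was high in sensitive tumors: it had 141, 177, 175, 99.7 and 140 TPM in resistant tumors, 176, 327 and 308 TPM in sensitive tumors, and 101, 127, 95.6, 123 and 102 TPM in vehicle tumors. It rose by 1.32 ± 0.21 in sensitive against vehicle tumors (adjusted p = 0.00102) and was lower in resistant than in sensitive ones (-0.81 ± 0.21, adjusted p = 0.0118; 0.0678 without sensitive mouse 6-5, 0.0527 without 6-6).

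**Figure D5:**
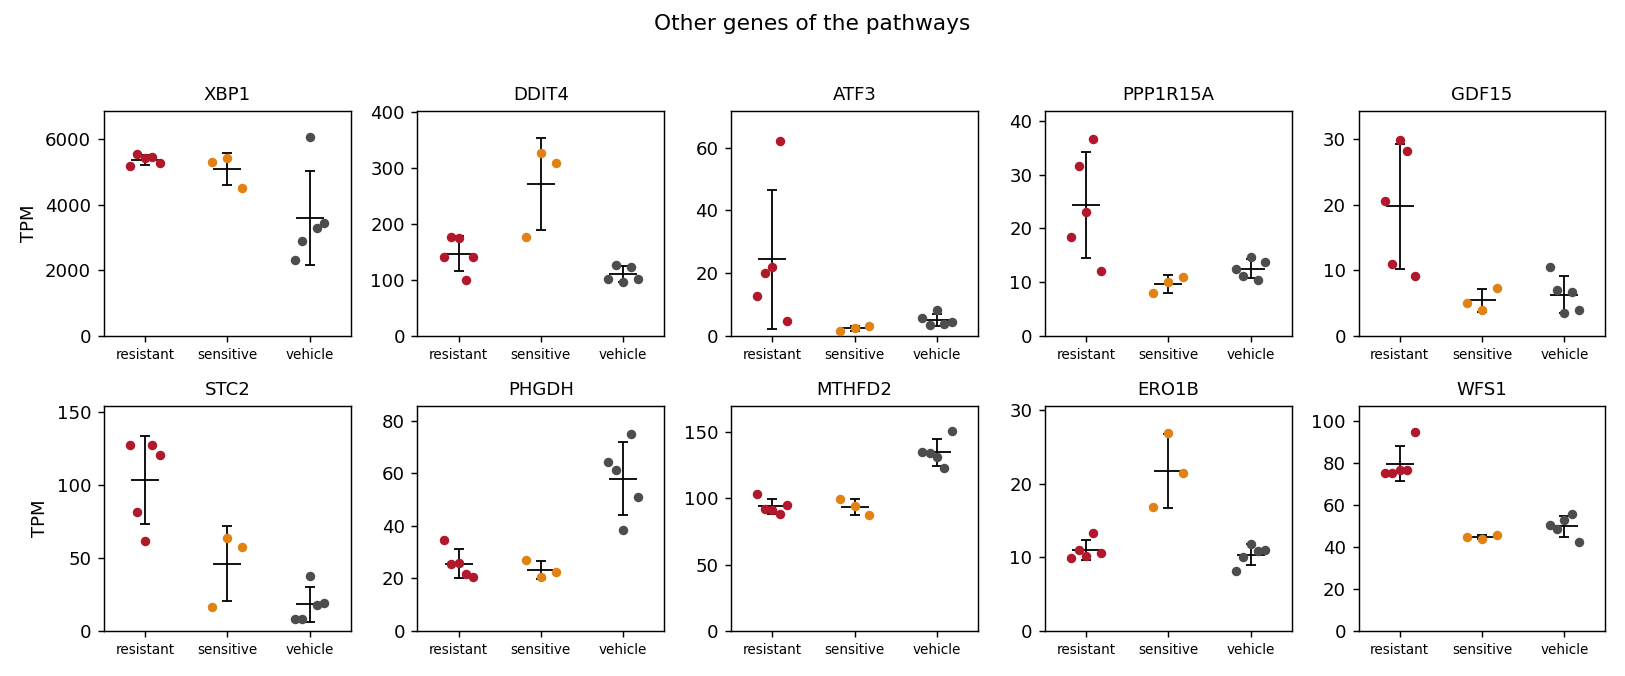
TPM per mouse (linear axis from 0) of genes of the same pathways that are not among the 35, for resistant (5 mice), sensitive (3 mice) and vehicle tumors (5 mice); each point is 1 mouse, each horizontal line a group mean and each whisker 1 SD. WFS1 is higher in all 5 resistant tumors, PHGDH and MTHFD2 are higher in vehicle tumors, and ATF3 spreads widely among resistant tumors.

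Other measures moved with the groups. The summed TPM of 8 luminal markers was 10254 to 13757 in resistant, 7389 to 9513 in sensitive and 7974 to 12245 in vehicle tumors, so the tumors carried the markers of their label. The sum of 8 proliferation genes was 69.1 to 112 TPM in resistant, 33.9 to 48.0 TPM in sensitive and 405 to 594 TPM in vehicle tumors. Of human fibroblast markers 7 of 8 were under 1 TPM in every mouse, as were 5 of 6 endothelial and 3 of 8 leukocyte markers; CD3E was at 0 in every mouse. The leukocyte sum was 9.3 to 16.2 TPM in resistant, 6.93 to 9.66 TPM in sensitive and 4.59 to 8.16 TPM in vehicle tumors, and the endothelial sum 2.75 to 5.38, 1.39 to 2.33 and 1.09 to 2.73 TPM. Of 6 plasma cell markers (secretory cells rich in ER) 4 were under 1 TPM in every mouse, and the sum, mostly SDC1 and MZB1, was 120 to 185 TPM in resistant, 106 to 131 TPM in sensitive and 87.3 to 115 TPM in vehicle tumors. With the other 4 that low, the sum is no measure of plasma cells. The part of all these measures in the results above was not tested. In bulk tumors, fewer cells of a type and less RNA per cell cannot be told apart.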

How the data were processed

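RNA-seq of 26 libraries from 13 xenografts was deposited by the authors as 1 table of TPM per gene, in which each library sums to between 999850 and 999889. Per the submitters' processing notes, FastQC, STAR, HTSeq and RSEM were used with the builds GRCh38 and GRCm38; the sources used here name no versions, annotation or strandedness, nor how mouse reads were set aside. The depth of a library is unknown from TPM, so no counting intervals are given. Libraries A and B of a mouse correlated at r 0.989 to 0.994 across genes, and each of the 26 correlated best with its partner from that mouse; nothing states at which step they were split. TPM per mouse is the mean of both. Labels call the control treatment DMSO and the design text calls it vehicle. All libraries carry batch label 1.

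Tests used limma 3.58.1 (R 4.3.3) with a trended prior on log2(TPM + 1) averaged over A and B, all 13 mice in 1 fit, on genes with a mean of at least 1 TPM in at least 3 mice, with Benjamini-Hochberg adjustment over all 14080 genes. Changes are printed relative to the median of all genes, with standard errors and adjusted p as fitted. The test was tried on simulated data with known changes before use. Members and lists were chosen with earlier results of these data known, so no set test was made. Besides the 35 members, up to 6 called genes per list and comparison could be named, by smallest adjusted p, plus XBP1, ATF3, PPP1R15A and DDIT4. A result that this rule would name is not reported here. Tables and figures used Python 3.11.15, pandas 2.3.3 and matplotlib 3.10.9. Alternatives were other scalings, pseudocounts, filters, libraries, estimators and samples.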

Additional observations from a re-analysis of the deposited data

Results flagged for a closer look

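In groups of 5 mice, a value was singled out when its gap to the nearest other mouse exceeded 0.71 of the range of the group. Of 70 gene and group pairs 3 met this, and chance alone flags about 1 in 20. PDIA3 had 557 TPM in resistant mouse 9-8, against 486 to 502 TPM in the other 4 resistant mice. EIF2AK3 had 16.1 TPM in the same mouse, against 13.7 to 14.2 TPM in the others. NUPR1, a stress-induced chromatin protein of the ATF4 side, had 195 TPM in vehicle mouse 1-5, against 95.6 to 109 TPM in the other 4 vehicle mice.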

How the results depend on the processing

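Over 105 gene and comparison pairs, 15 were called, 4 of them under all alternatives run (EDEM1 against both groups, DERL3 in sensitive against vehicle where it passed the filter, and DDIT3 in resistant against vehicle), and 71 of the 90 not called stayed uncalled; no fitted change that was called turned its direction. Counts of called genes moved as follows. Quantile normalization gave 1 ER-side gene higher and 1 lower and 1 ATF4-side gene higher in sensitive against vehicle tumors, and 6 ER-side genes higher and 1 lower in resistant against vehicle tumors. All genes then gave 6.61% higher and 6.99% lower, and 16.7% and 19.7%, in those comparisons. Median-of-ratios scaling gave 1 ATF4-side gene higher in sensitive against vehicle, 8 ER-side genes higher and 0 lower in resistant against vehicle, and 0 ATF4-side genes lower in resistant against sensitive tumors. A filter of at least 5 TPM, which DERL3 does not pass, or A libraries alone, left 1 ER-side gene lower in sensitive against vehicle. The shares of all genes that were lower were 14.8% and 9.22%. B libraries alone left 1 ER-side gene lower in resistant against vehicle and 0 ATF4-side genes lower in resistant against sensitive. There 27.4% and 9.52% of all genes were lower. A fit of only the 2 groups compared gave 1 ATF4-side gene lower in sensitive against vehicle, and 7 ER-side and 1 ATF4-side genes higher in resistant against sensitive. Of all genes 9.02% were lower in the first of these and 10.5% higher in the second. Where not explained by fewer genes tested, the cause was not tested.

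With the mouse as a block and the library letter as a covariate over 26 libraries, 3 ER-side and 2 ATF4-side genes were lower in sensitive against vehicle, 6 ER-side genes higher and 4 lower and 1 ATF4-side gene lower in resistant against vehicle, and 4 ER-side genes higher and 1 ATF4-side gene higher and 0 lower in resistant against sensitive. Over all genes that fit gave 4.31% higher and 15.2% lower, 11.5% and 33.4%, and 11.1% and 13.6%. That fit ties A and B of a mouse by 1 correlation common to all genes and keeps the residual degrees of freedom of 26 libraries from 13 mice. Its p-values may therefore be too small, which was not tested. The letters do not pair mice (correlation of A deviations over 78 pairs of mice -0.11 to 0.12).

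Leaving out each mouse in turn, sensitive against vehicle ranged over 0 to 1 ER-side genes higher and 1 to 2 lower, and 0 to 1 ATF4-side genes higher and 0 to 1 lower. Resistant against vehicle ranged over 1 to 8 and 2 to 4 on the ER side and 1 to 2 and 0 to 1 on the ATF4 side, and resistant against sensitive over 1 to 5 and 0 to 1, and 0 to 1 and 0 to 1. The shares of all genes moved too. They ranged over 0.710% to 3.85% higher and 5.69% to 13.6% lower in sensitive against vehicle tumors. Resistant against vehicle gave 9.78% to 12.1% and 27.7% to 34.9%, and resistant against sensitive 4.78% to 11.3% and 4.94% to 14.0%. Quantile normalization gave an ER-side median of 0.13 in resistant against sensitive tumors, in place of 0.20, a move above the spread between mice of those groups; under both scalings the other side medians moved by less than that spread. Only TPM is at hand, so depth sets no limit that can be stated.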

Other observations

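Cytosolic and mitochondrial heat shock genes, which answer misfolding outside the ER, were mostly lower in resistant than in vehicle tumors. Of 13 such genes 1 was higher and 11 lower in resistant against vehicle tumors (median relative log2 change -0.49, against quartiles of -0.19 and 0.22 over all genes), 1 higher and 6 lower in resistant against sensitive tumors, and 0 higher and 1 lower in sensitive against vehicle tumors. Of all genes 11.5% were higher and 32.5% lower, 9.56% and 11.6%, and 3.16% and 12.5% in the same comparisons. After median-of-ratios scaling the heat shock counts were 1 and 8, 1 and 6, and 0 and 0. The shares of all genes that were lower were then 17.3%, 9.48% and 7.57%. Without sensitive mouse 6-4 or 6-5 the resistant against sensitive count was 1 and 3. There the lower share of all genes fell too, to 4.94% without 6-4 and 5.65% without 6-5, in place of 11.6%. HSPD1, the mitochondrial chaperonin, had 373, 316, 315, 329 and 351 TPM in resistant tumors, 529, 480 and 481 TPM in sensitive tumors, and 551, 551, 533, 565 and 543 TPM in vehicle tumors, with no overlap between any groups. Its change was -0.57 ± 0.06 in resistant against vehicle tumors (limma adjusted p = 1.29e-06) and -0.52 ± 0.07 against sensitive tumors (adjusted p = 0.000198). HSP90AA1, the inducible cytosolic HSP90, averaged 1272 ± 150 TPM in resistant, 1866 ± 225 TPM in sensitive and 2410 ± 354 TPM in vehicle tumors (resistant against vehicle -0.78 ± 0.11, adjusted p = 2.64e-05), while its ER relative HSP90B1 averaged 478 ± 35 TPM, 513 ± 10.9 TPM and 540 ± 53.4 TPM in the same groups and was not called.

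BAG3, a co-chaperone of selective autophagy, was the 1 gene of that list to rise. It had 63.5, 93.6, 90.2, 68.3 and 62.5 TPM in resistant tumors, 40.3, 36.0 and 41.3 TPM in sensitive tumors, and 64.1, 58.5, 42.6, 47.4 and 45.6 TPM in vehicle tumors. The change was 0.96 ± 0.16 against sensitive (adjusted p = 0.00188) and 0.67 ± 0.14 against vehicle tumors (adjusted p = 0.00615). Proliferation genes fell with treatment in the same tumors, and their part in these values was not tested.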
